A study of Rattus norvegicus with 12 samples.

Results

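The 4 actin genes Acta1, Actc1, Acta2 and Actb were followed in ventricular cardiomyocytes, the contractile muscle cells of the heart, after 24 h of phenylephrine (PE), an agonist of alpha-1 adrenergic receptors that drives hypertrophic growth of these cells in culture. They are 4 of the 32883 genes in the deposited count table and were taken by Ensembl identifier: Acta1 is ENSRNOG00000017786, Actc1 is ENSRNOG00000008536, Acta2 is ENSRNOG00000058039 and Actb is ENSRNOG00000034254. The symbols came with this selection, as the table itself holds identifiers alone. The cells came from hearts of Wistar rats labelled as 2 days old, with 1 to 2 days given for the preparation by trypsin digestion and a Percoll gradient, and no genotype other than the strain is named. There were 4 groups of 3 libraries each. Mock input and PE input are total RNA of mock-treated and PE-treated cells. Mock IP and PE IP are RNA recovered from such cells with an antibody against Cpeb4, a protein that binds the 3′ ends of mRNAs and takes part in the control of their poly(A) tails and translation. All 12 libraries were made with a 3′ end kit, in which a read marks the tail end of a transcript. A control precipitate, without the antibody, is not analysed here. The labels do not say whether the replicates of a group are separate cultures or animals, and the p-values therefore cover the spread between libraries, which may be technical.

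Actin is the protein of the thin filaments of muscle and of the cytoskeleton of all cells. Actc1 encodes cardiac alpha-actin, the main sarcomeric actin of the adult heart, and Acta1 encodes skeletal alpha-actin, which is also made in the immature heart and is widely used as a marker of the fetal gene programme that returns in hypertrophy. Acta2 encodes smooth muscle alpha-actin, found in vascular smooth muscle, in activated fibroblasts and in immature cardiomyocytes, and Actb encodes the cytoplasmic beta-actin. Muscle actin genes are textbook targets of serum response factor, which binds a sequence called the CArG box.

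The start regions of the 3 muscle actin genes are shown because this family is known for its CArG boxes and because Acta1 and Actc1 had the most similar profile over the libraries, as described further on. Whether the boxes relate to that similarity was not tested. RefSeq sequences on the GRCr8 build were matched by symbol for 3 of the 4 genes. Each runs 5′ to 3′ on the strand of the gene, from 250 bases before to 50 bases after the annotated start. The CArG box was searched on both strands in its strict form, a pair of C, 6 letters of A or T and a pair of G. A looser form allowed 1 of the central 6 letters to differ. Capitals mark all matches to the looser form, which includes the strict one.
Acta1, chr19:68784145-68784444, minus strand: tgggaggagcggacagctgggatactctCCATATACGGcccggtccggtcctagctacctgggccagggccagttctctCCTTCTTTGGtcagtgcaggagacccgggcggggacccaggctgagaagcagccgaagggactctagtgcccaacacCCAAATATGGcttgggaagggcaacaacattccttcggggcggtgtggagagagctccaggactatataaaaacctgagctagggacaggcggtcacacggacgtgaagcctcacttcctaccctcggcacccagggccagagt
Actc1, chr3:121271778-121272077, minus strand: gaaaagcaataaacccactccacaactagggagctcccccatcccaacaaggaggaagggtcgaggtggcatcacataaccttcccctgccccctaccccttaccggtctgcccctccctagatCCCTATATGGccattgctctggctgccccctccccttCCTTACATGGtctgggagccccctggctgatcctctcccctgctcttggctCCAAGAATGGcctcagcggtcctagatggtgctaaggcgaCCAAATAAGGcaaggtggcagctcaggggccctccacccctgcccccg
Acta2, chr1:241172454-241172753, minus strand: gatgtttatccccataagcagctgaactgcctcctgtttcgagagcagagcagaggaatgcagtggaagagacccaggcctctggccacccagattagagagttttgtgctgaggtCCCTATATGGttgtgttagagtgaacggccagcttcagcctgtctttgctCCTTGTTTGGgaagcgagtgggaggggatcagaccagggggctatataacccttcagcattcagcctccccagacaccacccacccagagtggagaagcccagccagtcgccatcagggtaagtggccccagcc

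Acta1 held 1 strict match, CCAAATATGG, at positions -94 to -85 from the annotated start. Actc1 also held 1, CCAAATAAGG, at positions 3 to 12, just after its annotated start. Acta2 held no strict match and 2 looser ones, CCCTATATGG at -134 to -125 and CCTTGTTTGG at -84 to -75. The first of these letter runs is also among the 3 additional looser matches of Actc1, there at -126 to -117, and Acta1 had 2 additional looser matches. Of 33469 rat start regions of this length, 1.64% held the strict form and 9.42% the looser one. A match describes letters and not a bound site, and these data do not measure binding to DNA.

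The libraries held 1423334 to 30216559 counts. Among genes at 20 to 50 CPM, that is counts after scaling each library to the same total, in the other libraries of the same RNA, 2.65% had no count in mock input replicate 2, 2.28% in PE input replicate 1 and 5.83% in mock IP replicate 2, against at most 0.27% in the other 9. Results are also given without mock replicate 2 and PE replicate 1 (4 libraries of input and IP) where this changes a call. CPM values are scaled by TMM factors, which set most genes near equal between libraries.

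Skeletal alpha-actin had the clearest response to PE. Acta1 stood at 874, 815 and 704 CPM in mock input replicates 1, 2 and 3 and at 2900.3, 3844 and 5752 CPM in PE input. The lowest PE library was thus above the highest mock library by a wide margin. Acta1 rose by a log2 fold change of 2.38 (SE 0.31, 95% interval 1.72 to 3.04, edgeR quasi-likelihood test, adjusted p = 0.00906, n = 3 and 3), a 5.22-fold difference. It had the lowest p of all 10491 genes tested and was the 1 gene of the 4 past the threshold, an adjusted p under 0.05. No other gene tested passed it, so the share of all genes that passed, 0.00953%, is Acta1 itself. The edgeR adjusted p was 0.115, 0.155 and 0.226 without mock input replicate 1, 2 or 3 and 0.0682 without PE input replicate 3, with log2 fold changes of 2.08 to 2.59 over all 12 fits that left out 1 library. In bulk RNA such as this, more cells of a type and more RNA per cell cannot be told apart.

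In the precipitates Acta1 was also higher in every PE library. It stood at 829, 574 and 812 CPM in mock IP and at 2631, 1868 and 3155 CPM in PE IP, again with no overlap. The log2 fold change was 1.79 (SE 0.31, 95% interval 1.14 to 2.44), with an edgeR adjusted p = 0.116, over the threshold. Without the 4 libraries that include those that stood apart, it was 1.595 on the log2 scale and passed (edgeR adjusted p = 0.0103), and the DESeq2 Wald test on all libraries gave 1.84 (adjusted p = 4.44e-05).

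Cardiac alpha-actin lay higher in every PE library, without passing the test. Actc1 stood at 5907, 5194 and 4724 CPM in mock input and at 10701, 9860 and 19107 CPM in PE input. The spread among PE inputs came mostly from replicate 3, which also had the highest Acta1. The log2 fold change was 1.33 (SE 0.31, 95% interval 0.66 to 1.99, edgeR adjusted p = 0.635), and 0.96 without PE input replicate 3. In the precipitates Actc1 stood at 3977, 4429 and 4133 CPM in mock cells and at 14927, 6534 and 11677 CPM in PE cells. The 3 mock precipitates lay close together, and all PE precipitates were above them. The log2 fold change was 1.40 (SE 0.31, 95% interval 0.74 to 2.07, edgeR adjusted p = 0.329), and the DESeq2 Wald test gave 1.43 with an adjusted p = 0.0149.

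Smooth muscle alpha-actin showed no separation between mock and PE libraries in TMM-scaled CPM. Acta2 stood at 944, 361 and 698 CPM in mock input and at 617, 1110 and 968 CPM in PE input. Its lowest value was in mock input replicate 2, a library that stood apart. The log2 fold change was 0.43 (SE 0.41, 95% interval -0.43 to 1.29, edgeR adjusted p = 1), and it was 0.13 without that library. In IP Acta2 stood at 1415, 769 and 1372 CPM in mock cells and at 1700, 667 and 1588 CPM in PE cells. The low library was replicate 2 under both treatments, and the ranges overlapped almost entirely. The log2 fold change was 0.15 (SE 0.41, 95% interval -0.70 to 1.01, edgeR adjusted p = 1), and it was -0.33 without the 4 libraries, so its direction was not settled.

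Beta-actin was steady among mock libraries and scattered among PE libraries. Actb stood at 46.4, 49.3 and 47.1 CPM in mock input, from 192, 216 and 35 counts, and at 139, 484 and 66.9 CPM in PE input. All PE inputs exceeded all mock inputs, but they differed from each other by more than the mock inputs differed from the lowest of them. The log2 fold change was 2.27 (SE 0.57, 95% interval 1.05 to 3.49, edgeR adjusted p = 0.774), and it was 1.11 without PE input replicate 2, the library with the highest value. With no filter on low counts the same gene passed (edgeR adjusted p = 0.000742). In IP Actb stood at 155, 129 and 158 CPM in mock cells and at 445, 209.7 and 177 CPM in PE cells. Here too the groups did not overlap, with a log2 fold change of 0.91 (SE 0.55, 95% interval -0.25 to 2.08, edgeR adjusted p = 1) that was 0.39 without PE IP replicate 1. Genes that share reads with near-identical copies are uncertain, and how the authors' counting treated reads shared between actin genes or their pseudogenes is not given in the sources used here.

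**Figure D1:**
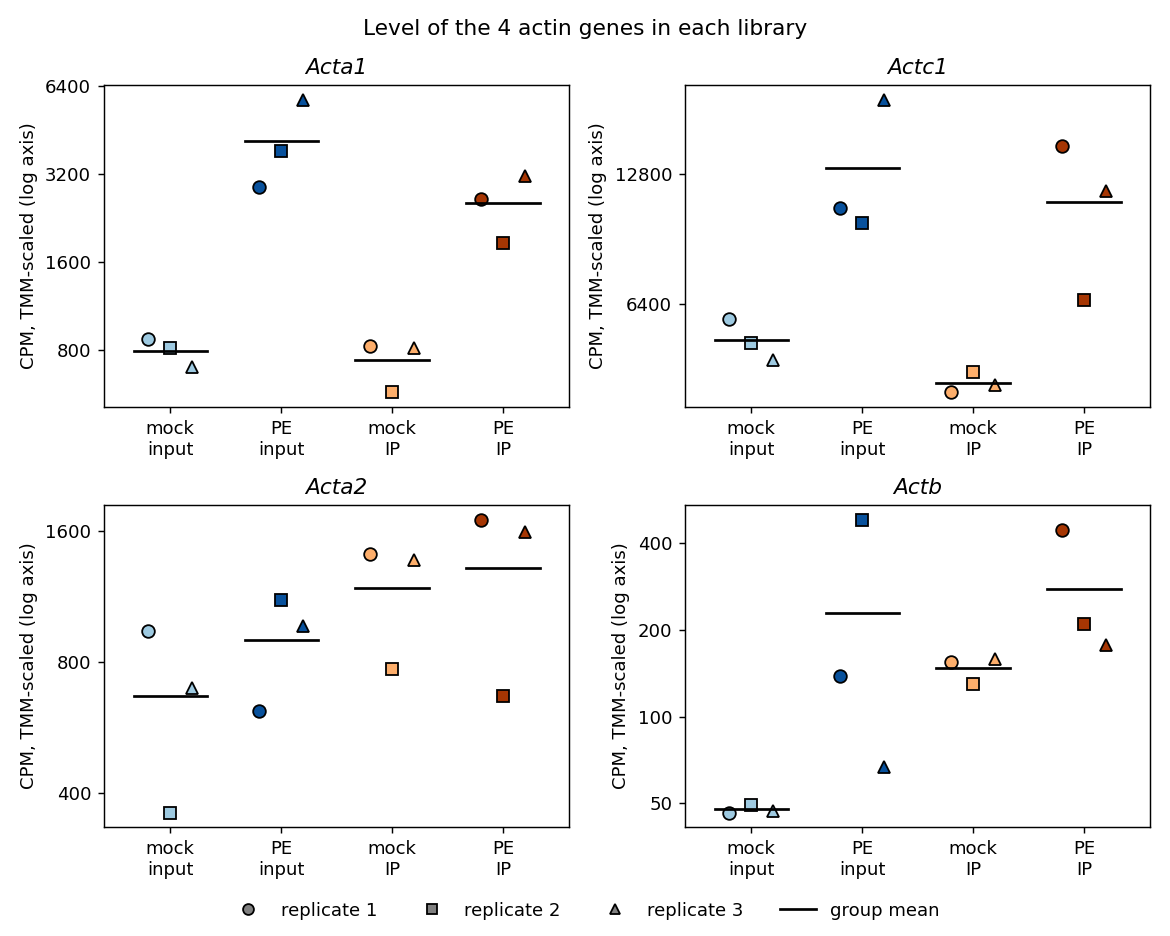
Level of each actin gene in CPM (TMM-scaled, log axis, a separate scale for each gene) in the 12 libraries, by group, with symbols for replicates and a line for the group mean. Acta1 and Actc1 were higher in all PE than in all mock libraries of the same RNA, Acta2 overlapped, and Actb ranged from 66.9 to 484 CPM among PE inputs.

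Read over the family, 3 of the 4 genes (Acta1, Actc1 and Actb) had higher TMM-scaled CPM in all PE than in all mock libraries. This held both in input, where 5.67% of all genes did so, and in IP, where 8.61% did. The median log2 fold change of the 4 genes was 1.80 in input, beside 0.06 for all genes tested, and 1.16 in IP, beside 0.12. At an unadjusted p under 0.05 stood 3 of the 4 genes in input, where 3.57% of all genes did, and 2 in IP, where 5.54% did. By edgeR p in input, Actc1 ranked 8 and Actb 16 of 10491 genes, and the median SE of all genes there was 1.15. In IP 0 of the 4 passed the adjusted threshold in edgeR, which 1 gene (0.00953% of all genes) did. The DESeq2 Wald test passed 1 of them (Acta1) in input, where 0.247% of all genes with an adjusted p passed, and 2 (Acta1 and Actc1) in IP, where 0.536% passed. Scaling by library totals in place of TMM factors moved the median of all genes by 0.25 in input and 0.13 in IP, and all 4 genes kept a positive PE difference under it.

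A share within a library needs no scaling between libraries. Counts were not divided by transcript length, since the kit reads the transcript end, so a share here is one of counts and holds between genes only as far as their ends were captured and annotated alike. The 95% Wilson interval of a share in 1 library was at most 1.23 percentage points to either side, which covers counting error only, as reads without molecular identifiers are not independent molecules.

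Acta1 took a larger part of the actin counts after PE. Its share of the summed counts of the 4 genes was 11.3%, 12.7% and 11.4% in mock input and 20.2%, 25.1% and 22.2% in PE input. The difference of 10.7 percentage points was larger than the spread between replicates (22.5% ± 2.48 against 11.8% ± 0.80, SD, n = 3 each, two-sided exact permutation p = 0.1, the smallest that 3 against 3 libraries allow). In IP the share was 13.0%, 9.73% and 12.5% in mock cells and 13.4%, 20.1% and 19.0% in PE cells. Those groups lay just apart, with PE IP replicate 1 next to the highest mock value (difference 5.74 points, exact permutation p = 0.1). After Benjamini-Hochberg adjustment over the 30 tests of shares and ratios, the lowest value was 0.15, so no share or ratio passed a threshold of 0.05. Tests of 3 against 3 libraries could not pass it, whatever the values, as their p cannot go below 0.1.

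Actc1 supplied most of the actin counts in every library. Its share was 76.0%, 80.9% and 76.5% in mock input and 74.5%, 64.5% and 73.8% in PE input, lower in all PE libraries although its CPM was higher in all of them (difference -6.89 points, exact permutation p = 0.1, adjusted 0.2). The difference was -3.65 points without PE input replicate 2, the library with the lowest share. In IP the share was 62.4%, 75.0% and 63.8% in mock cells and 75.8%, 70.4% and 70.3% in PE cells, which overlapped (exact permutation p = 0.3, adjusted 0.375).

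The ratio of the sarcomeric pair shows the same shift without the other genes. In mock input there were 14.8, 15.7 and 14.9 Acta1 counts per 100 Actc1 counts, and in PE input 27.1, 39.0 and 30.1. The log2 ratio thus differed by 1.07 between PE and mock input (exact permutation p = 0.1, adjusted 0.2). In IP there were 20.8, 13.0 and 19.7 Acta1 counts per 100 Actc1 counts in mock cells and 17.6, 28.6 and 27.0 in PE cells. Here PE IP replicate 1 lay within the mock range, and the log2 ratio differed by 0.45 (exact permutation p = 0.3, adjusted 0.375), with 0.24 without mock IP replicate 2, the library with the lowest ratio.

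Acta2 held a smaller mean share after PE, although its mean CPM was not lower. It held 12.2%, 5.62% and 11.3% of the actin counts in mock input and 4.30%, 7.26% and 3.74% in PE input, with mock replicate 2 inside the PE range (exact permutation p = 0.2, adjusted 0.3). In IP it held 22.2%, 13.0% and 21.2% in mock cells and 8.63%, 7.19% and 9.57% in PE cells. The precipitates did not overlap, with a difference of -10.3 points (18.8% ± 5.02 against 8.46% ± 1.20, SD, n = 3 each, exact permutation p = 0.1, adjusted 0.2). Actb held 0.26% to 3.17% of the actin counts over all libraries, and its share overlapped between mock and PE cells in both input and IP.

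**Figure D2:**
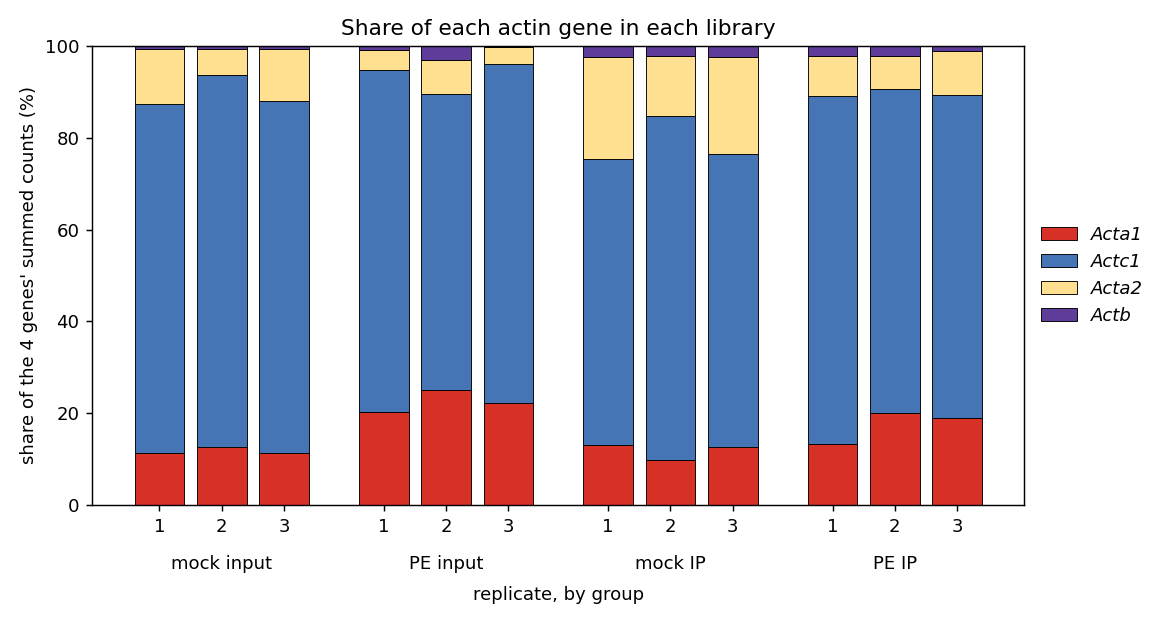
Share of each actin gene in the summed counts of the 4 genes (percent, stacked to 100) in each library, by group and replicate. The Acta1 part is 20.2% to 25.1% in PE input against 11.3% to 12.7% in mock input, and the Acta2 part is largest in the mock precipitates, at 13.0% to 22.2%.

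The 4 genes together also took a larger part of each library after PE. They held 0.38%, 0.56% and 0.32% of all counts in mock input and 1.38%, 1.10% and 1.47% in PE input. In IP they held 0.91%, 0.86% and 0.90% in mock cells and 3.11%, 1.41% and 2.64% in PE cells. PE exceeded mock in every library of either RNA (exact permutation p = 0.1 each, adjusted 0.2). The mock precipitates also exceeded all mock inputs (difference 0.47 points, exact permutation p = 0.1, adjusted 0.2), and in PE cells, where the ranges of IP and input overlapped, the difference was 1.07 points (exact permutation p = 0.2, adjusted 0.3) and 0.71 points without PE IP replicate 1. With labels permuted inside each treatment and both treatments pooled, IP was above input by 0.77 points (exact permutation p = 0.01, adjusted 0.15). A share of all counts also depends on how much the other transcripts of a library take.

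**Figure D3:**
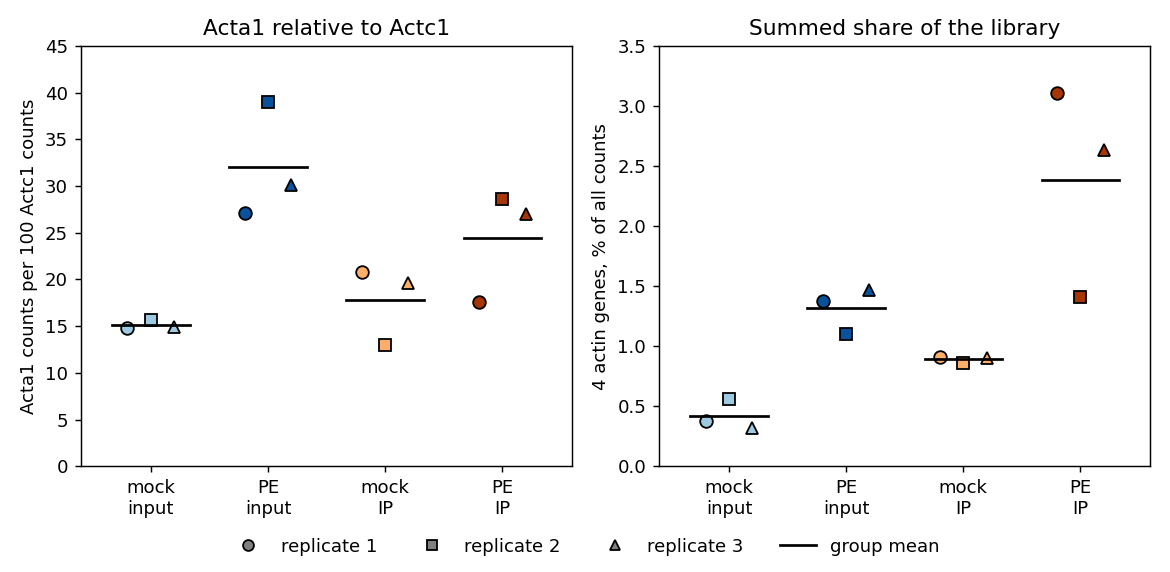
Left, Acta1 counts per 100 Actc1 counts; right, the 4 actin genes as a percentage of all counts, for each library by group, with symbols for replicates and a line for the group mean. The ratio is 27.1 to 39.0 in PE input against 14.8 to 15.7 in mock input, and the summed share is higher in all PE than in all mock libraries of the same RNA.

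The next comparison asks, within each treatment, how the level of actin transcripts in Cpeb4 precipitates differed from that in input. Of the 4 genes, 0 passed in mock cells, where 0.743% of all genes did, and 0 passed in PE cells, where 2.11% did (edgeR, adjusted p under 0.05). At an unadjusted p under 0.05 stood Actb in mock cells, where 10.8% of all genes did, and Acta1 in PE cells, where 11.7% did. In the DESeq2 Wald test 0 of the 4 passed in either, while 4.06% of all genes passed in mock and 6.39% in PE cells. In mock cells 2 of the 4 did not overlap between IP and input, Actb being higher and Actc1 lower in IP, and in PE cells 0 of 4. Among all genes the share without overlap was 17.9% in mock and 22.2% in PE cells. The median log2 fold change of the 4 genes was 0.36 in mock cells, beside 0.11 for all genes, and 0.01 in PE cells, beside 0.18.

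Under TMM scaling the sarcomeric actins had negative log2 fold changes of IP against input in both treatments, without passing the test, and positive ones under scaling by library totals. From input to IP, the log2 fold change of Acta1 was -0.11 (SE 0.30, 95% interval -0.74 to 0.52) in mock cells and -0.71 (SE 0.30, 95% interval -1.34 to -0.08, edgeR adjusted p = 0.334) in PE cells. Without the 4 libraries, which leaves 2 against 2, the PE value was -0.97 and passed (edgeR adjusted p = 0.0185). How many of all genes passed in that smaller fit was not counted. Without PE input replicate 3 alone the Acta1 value was -0.40 (edgeR adjusted p = 0.836). As a share of the actin counts, Acta1 was lower in all 3 PE precipitates than in all 3 PE inputs (difference -5.02 points, exact permutation p = 0.1, adjusted 0.2), a comparison free of the scaling. The nearest of these libraries were 20.1% in PE IP replicate 2 and 20.2% in PE input replicate 1, and the difference was -2.95 points without PE IP replicate 1. The ratio of Acta1 to Actc1, also free of the scaling, overlapped between PE IP and PE input. Its log2 value differed by -0.41 (exact permutation p = 0.2, adjusted 0.3), so the separation was seen in the share and not in the ratio. For Actc1 the log2 fold changes were -0.34 (SE 0.31, 95% interval -0.99 to 0.32) in mock and -0.26 (SE 0.31, 95% interval -0.91 to 0.39) in PE cells. By library totals alone these 4 values turn positive, at 1.06 and 0.45 for Acta1 and 0.85 and 0.89 for Actc1, because that scaling moves the median of all genes by 1.21 in mock and 1.09 in PE cells. Relative to the median of all genes they stayed below 0.

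Acta2 and Actb had higher mean CPM in mock IP than in mock input, without passing the test. For Acta2 the libraries overlapped, as mock IP replicate 2 (769 CPM) lay below mock input replicate 1 (944 CPM). Acta2 had a log2 fold change of 0.83 (SE 0.41, 95% interval -0.04 to 1.69, edgeR adjusted p = 0.492) in mock and of 0.55 (SE 0.41, 95% interval -0.31 to 1.41, edgeR adjusted p = 0.739) in PE cells. These fell to 0.53 without mock input replicate 2 and to 0.33 without PE IP replicate 1. Its share of the actin counts was 9.11 points larger in mock IP than in mock input, with no overlap (exact permutation p = 0.1, adjusted 0.2), and over both treatments 6.24 points larger (exact permutation p = 0.01, adjusted 0.15). Actb had a log2 fold change of 1.63 (SE 0.56, 95% interval 0.43 to 2.83, edgeR adjusted p = 0.259) in mock cells, where it went from 0.60% to 0.77% of the actin counts in input to 2.19% to 2.44% in IP. With no filter on low counts the Actb difference in mock cells passed (edgeR adjusted p = 0.0113). In PE cells the Actb value was 0.27 (SE 0.54, 95% interval -0.88 to 1.43), and it was 1.43 without PE input replicate 2 and -0.25 without PE IP replicate 1. Scaled by library totals, Acta2 passed as higher in IP in both treatments (log2 fold changes 2.15 and 1.68, edgeR adjusted p = 0.0112 and 0.0238) and Actb in mock cells (2.80, edgeR adjusted p = 0.0185), on the same shift of all genes.

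PE did not detectably change the ratio of IP to input for these genes. The test of that change passed 0 of the 4 genes, and 0% of all genes in edgeR, with 0 of the 4 and 2.58% of all genes at an unadjusted p under 0.05. In DESeq2's Wald test 0 of the 4 and 0.0263% of all genes passed. The differences were -0.60 for Acta1 (95% interval -1.48 to 0.29), 0.08 for Actc1 (-0.85 to 1.00), -0.27 for Acta2 (-1.49 to 0.94) and -1.36 for Actb (-3.01 to 0.29), all on the log2 scale. Without PE input replicate 2 the differences were -0.20 for Actb and -0.094 for Acta2, and without PE input replicate 3 that for Acta1 was -0.29. Other settings gave larger ones. Without the 4 libraries they were -0.997 for Acta1 (edgeR unadjusted p = 0.0114, adjusted 0.639) and -2.26 for Actb (0.062, adjusted 0.730). For Actb it was -1.80 without PE input replicate 3 (edgeR unadjusted p = 0.0159) and -1.88 without PE IP replicate 1 (0.033). With no filter it was -1.36 (0.024), and none passed after adjustment.

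**Figure D4:**
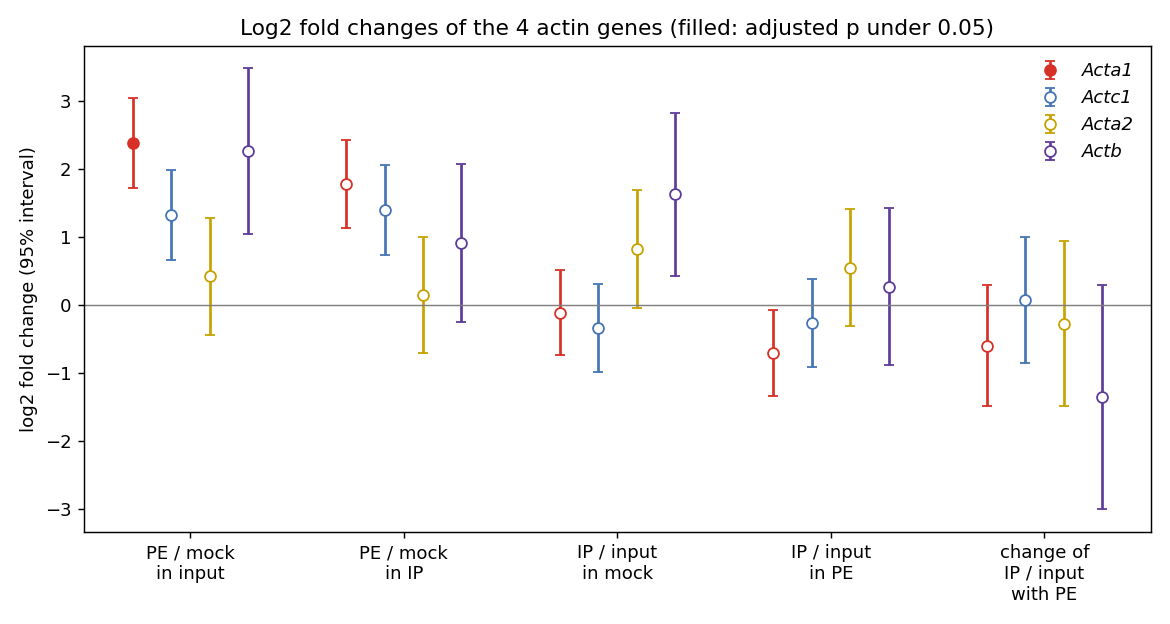
Log2 fold change of each actin gene in the 5 comparisons (points, with 95% intervals as bars, edgeR fit of all 12 libraries); filled points have an adjusted p under 0.05. Acta1 in input is the single filled point, at 2.38, and the intervals of Acta1 and Actc1 lie above 0 for PE against mock in both RNAs.

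Actc1 was the gene most like Acta1. Among 5864 other genes with a mean of at least 10 CPM, its log2 CPM had the highest Pearson r with that of Acta1 over the 12 libraries, at 0.93, and the next was ENSRNOG00000008822, also at 0.93, with means of 89.1 CPM in mock input, 219 in PE input, 91.9 in mock IP and 168 in PE IP. As mock and PE libraries form separate clusters, r was also taken within each. It was 0.28 over the 6 mock and 0.76 over the 6 PE libraries for Actc1, and 0.52 and 0.53 for ENSRNOG00000008822. Acta2 and Actb followed Acta1 less closely, at 0.27 and 0.44 over all libraries and at 0.20 and -0.44 over the 6 PE libraries. Over the 6 mock libraries they stood at 0.19 and -0.21, so Acta2 was there near the 0.28 of Actc1. Libraries share depth and composition, so these values are a description.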

How the data were processed

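RNA-seq of 12 libraries was analysed, 3 each of input and Cpeb4 IP RNA from mock and PE cells; each library took 200 ng of RNA and 15 cycles, per the labels' protocols. The authors deposited raw counts per gene without normalization. Per the submitters' processing notes, the build was Rnor_6.0 and the tools included STAR 2.7, cutadapt 2.5, featureCounts 1.6.4 and DESeq2, without their options. Of the table's lines, 32883 were genes and as many were blank and skipped. Columns were matched to samples by RNA, treatment and replicate number.

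Counts were tested with edgeR 4.0.16 in R 4.3.3 (TMM, filterByExpr, 10491 genes, robust dispersions, quasi-likelihood F-test) in 1 fit of the 4 group means, with Benjamini-Hochberg adjustment over all genes. The SE is the log2 fold change divided by the square root of F. For shares and ratios, two-sided exact permutation tests were used, where 3 against 3 libraries cannot go below p = 0.1. Steps were tested on simulated data. The lowest chi-square per degree of freedom between libraries of 1 group was 7.79, above what counting noise alone gives.

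Alternatives were DESeq2 size factors, library totals, no filter, DESeq2 1.42.0, fits on 6 libraries, blocks by replicate number, and fits without 1 library each or without mock replicate 2 and PE replicate 1 (4 libraries). Genes named are the 4 members and, for likeness, the 2 genes with the highest r to Acta1 (log2 CPM, prior count 2). Members, lists and tests were chosen with earlier results of these data known. The 5 gene lists of related genes and the cell type markers were not run, because 0 identifiers could be matched to symbols in the reference, so other cell types in the preparation were not tested.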

Additional observations from a re-analysis of the deposited data

How the results depend on the processing

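With replicate numbers as a replicate block over all 12 libraries, Acta1 in PE input had a log2 fold change of 2.34 (edgeR adjusted p = 0.0225), and none of the 4 genes changed its call or direction in the 5 comparisons. The block within treatment, run for IP against input in each treatment and for its change with PE, changed none either (Acta1 IP against input in PE cells -0.68, edgeR adjusted p = 0.183). Input and IP of the same number deviated together with r of 0.02 to 0.32, positive in all 6 pairs, whereas mock and PE of the same number had -0.32 to 0.25. The main tests took neither as pairs, so they leave a possible pairing of input and IP unused. The column names give input and IP of a number and treatment the same letter, and 4 of 6 inputs were most like the IP of their own letter. Within these 6 pairs the 4 genes' share of all counts was higher in IP in 6 (mean difference 0.77 points, replicate block, exact permutation p = 0.03125, adjusted 0.395). Scaled by library totals, the median of all genes was higher in IP as well. DESeq2 size factors in the 5 comparisons, and the fits of 6 libraries in the 4 they were run for (not the change of IP with PE), changed no call or direction of the 4 genes.

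Library totals turned IP against input to 1.06 and 0.45 for Acta1 and 0.85 and 0.89 for Actc1 (mock and PE cells), and let Acta2 pass at 2.15 and 1.68 and Actb in mock cells at 2.80. Without a filter, Actb passed at 2.27 for PE in input and 1.65 for IP in mock cells, and Acta1 and Actc1 at 1.79 and 1.40 for PE in IP. DESeq2 let the latter pair pass at 1.84 and 1.43. For the fits by library totals, without a filter and without the 4 libraries, the share of all genes that passed was not counted. Without the 4 libraries, Acta1 passed at 1.595 for PE in IP and -0.97 for IP in PE cells. Signs then turned for Acta2 for PE in IP (-0.33), Acta1 for IP in mock cells (0.024), Actb for IP in PE cells (-0.55) and the change of IP with PE of Actc1 (-0.29). They also turned for the share of Acta1 in mock IP against input (1.45 points), of Actb in PE IP against input (-0.048 points) and the log2 ratio of Acta1 to Actc1 for IP against input over both treatments (0.073).

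Leaving out 1 library gave 2.08 to 2.59 for Acta1 in PE input (passing in 8 of 12 fits). Signs were not constant for Acta2 for PE in IP (-0.080 to 0.47), Acta1 for IP in mock cells (-0.20 to 0.040), Actc1 and Actb for IP in PE cells (-0.54 to 0.10 and -0.25 to 1.43), and the change of IP with PE of Actc1 (-0.20 to 0.44) and Acta2 (-0.61 to 0.043). Among shares they were not constant for Acta1 in mock IP against input (-0.65 to 0.99 points), Actc1 in PE IP against input (-1.99 to 3.06), Actb in PE against mock input (-0.10 to 1.36) and in PE IP against input (-0.20 to 1.25), nor for the log2 ratio for IP against input over both treatments (-0.17 to 0.0084). The cause was not tested. The lowest count was 35, for Actb in mock input replicate 3. Without that library the Actb log2 fold changes were 2.26 for PE in input and 1.62 for IP in mock cells.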
